A study of Mus musculus with 24 samples.

Results

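The windows at genes of voltage-gated and related ion channels were taken from 2 lists of differentially 5-hydroxymethylated regions (DhMRs), one of 12096 windows with a higher 5hmC level in Wt25 mouse ESCs and one of 8630 windows with a higher level in AA10 mouse ESCs. A channel gene was an autosomal protein-coding gene whose symbol begins with *Kcn*, *Cacna*, *Cacnb*, *Cacng* or *Hcn*, or with *Scn* followed by a number, and its windows were those with the midpoint inside its span or with its identifier in the deposited annotation. This gave 135 genes, of which 92 were potassium, 25 calcium, 14 sodium and 4 HCN channel genes, and 98 of the 20726 listed windows. Of these, 62 lay inside the gene and 36 were tied to a channel gene by the deposited annotation alone.

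Wt25 and AA10 are both mouse ESC lines of mixed C57BL/6J-129V background in which the endogenous *Tet1*, *Tet2* and *Tet3* genes are knocked out, kept in 2i medium with LIF. Wt25 carries lentiviral human wild-type Tet3, and AA10 carries the same construct with both cdk5-phosphorylated serines changed to alanine (the phosphor-mutant). Each line is 1 clone selected with puromycin, so a difference between the lines cannot be told apart from a difference between clones. 5hmC was enriched from genomic DNA with an antibody (5hmC-DIP) in 3 libraries of each line, and the lists compare the lines over these libraries together. Each listed window is 198 bp of a 200 bp bin and carries a position, a direction and, in most cases, the nearest gene. The lists give neither read counts nor the size or *P*-value of a difference, so the depth and the replicate spread of a window are unknown and no test was made. They hold no expression values either, so the ESC label was not checked against marker genes. Intervals given below are 95% intervals for counting error only, and neighbouring windows are not independent.

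Voltage-gated channels open or close their pore with the membrane potential. In nerve and muscle, sodium channels drive the upstroke of the action potential, calcium channels couple it to transmitter release, contraction and gene regulation, and potassium channels end it and set the resting potential. Most channels join a pore-forming subunit to accessory subunits that change its gating or its transport to the membrane. 5hmC is the product of the oxidation of 5-methylcytosine by the Tet enzymes and is found mainly at CpG dinucleotides.

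These 9 windows are printed to show the DNA behind the counts. The first 7 are, for each family and direction, the window with most CpGs, among those whose midpoint is not in an untranslated exon, in the gene or genes with most windows inside, and the last 2 are a promoter window and a coding exon window that hold no untranslated sequence. All are 198 bases from the plus strand of GRCm38.p6, and the capitals mark CpG.
Cacna1a, chr8:84504603-84504800, higher in Wt25: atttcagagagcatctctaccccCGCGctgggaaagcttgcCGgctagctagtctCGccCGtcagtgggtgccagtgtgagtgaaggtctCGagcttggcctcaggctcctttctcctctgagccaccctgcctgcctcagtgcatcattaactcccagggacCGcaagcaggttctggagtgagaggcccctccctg
Cacna1d, chr14:30125403-30125600, higher in AA10: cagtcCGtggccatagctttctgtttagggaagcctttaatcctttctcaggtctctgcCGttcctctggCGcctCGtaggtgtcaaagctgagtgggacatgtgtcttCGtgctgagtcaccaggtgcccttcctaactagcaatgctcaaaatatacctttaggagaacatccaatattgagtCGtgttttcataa
Scn3a, chr2:65547203-65547400, higher in Wt25: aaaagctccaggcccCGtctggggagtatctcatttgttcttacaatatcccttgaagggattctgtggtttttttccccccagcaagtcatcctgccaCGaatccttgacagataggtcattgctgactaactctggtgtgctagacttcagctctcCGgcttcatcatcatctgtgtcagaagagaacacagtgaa
Scn4b, chr9:45141003-45141200, higher in AA10: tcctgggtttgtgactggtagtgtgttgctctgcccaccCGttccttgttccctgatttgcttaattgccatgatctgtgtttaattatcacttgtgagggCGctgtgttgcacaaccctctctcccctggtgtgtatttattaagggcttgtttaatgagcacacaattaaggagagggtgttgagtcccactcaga
Kcnab3, chr11:69328403-69328600, higher in Wt25: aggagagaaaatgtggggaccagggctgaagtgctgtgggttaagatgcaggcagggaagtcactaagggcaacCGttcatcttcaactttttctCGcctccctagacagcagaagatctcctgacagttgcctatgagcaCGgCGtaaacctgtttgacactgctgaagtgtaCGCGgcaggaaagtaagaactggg
Kcnb2, chr1:15644203-15644400, higher in AA10: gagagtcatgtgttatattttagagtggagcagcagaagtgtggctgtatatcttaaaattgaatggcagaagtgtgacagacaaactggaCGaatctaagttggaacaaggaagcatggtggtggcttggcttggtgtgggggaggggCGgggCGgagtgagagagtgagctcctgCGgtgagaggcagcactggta
Kcnh3, chr15:99233403-99233600, higher in AA10: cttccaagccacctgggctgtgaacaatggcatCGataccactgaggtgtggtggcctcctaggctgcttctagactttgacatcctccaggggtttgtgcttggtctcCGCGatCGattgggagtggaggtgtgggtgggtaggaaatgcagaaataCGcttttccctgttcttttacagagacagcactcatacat
Hcn3, chr3:89160203-89160400, higher in AA10: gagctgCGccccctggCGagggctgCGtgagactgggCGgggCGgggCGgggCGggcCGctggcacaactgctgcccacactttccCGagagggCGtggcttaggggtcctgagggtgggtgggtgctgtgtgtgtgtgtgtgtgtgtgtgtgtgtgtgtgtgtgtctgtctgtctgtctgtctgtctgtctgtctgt
Kcnk4, chr19:6926003-6926200, higher in AA10: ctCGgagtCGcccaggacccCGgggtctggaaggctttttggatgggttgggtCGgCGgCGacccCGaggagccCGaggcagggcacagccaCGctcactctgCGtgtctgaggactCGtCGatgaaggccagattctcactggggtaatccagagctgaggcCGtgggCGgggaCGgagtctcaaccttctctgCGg
They range from 2 CpGs in the *Scn4b* window to 16 in the *Kcnk4* window. The windows of *Cacna1a*, *Cacna1d*, *Scn3a*, *Scn4b* and *Kcnb2* were wholly intronic. The midpoints of the *Kcnab3* and *Kcnh3* windows were intronic, with 80 and 46 bases of coding exon in the window. All 198 bases of the *Kcnk4* window were coding sequence of exon 7, the last of its transcript, and the gene lies on the minus strand.

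Channel genes carried windows in both directions. Of the 135 genes, 54 (40.0%) had at least 1 window, against 34.9% of all 20807 autosomal protein-coding genes. A window higher in Wt25 was found at 30 of the 135 channel genes, a share near the 22.8% of all genes in that direction. A window higher in AA10 was found at 28 of the 135, a share above the 17.1% of all genes. Windows pointed only to Wt25 at 26 genes, only to AA10 at 24 and both ways at 4. The other 81 genes had no listed window. Channel genes are long, with a median span of 42.7 kb against 17.6 kb over all genes, and a longer gene offers more bins.

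Of the 98 windows, 54 were higher in Wt25 and 44 in AA10, a Wt25 share of 55.1% (Wilson interval 45.2 to 64.6) beside 58.8% of the windows of all autosomal protein-coding genes. The Wt25 share was lower inside genes than outside them, with intervals that overlap at their ends. Inside the span, 28 windows were higher in Wt25 and 34 in AA10, a Wt25 share of 45.2% (33.4 to 57.5), whereas 61.1% (60.1 to 62.0) of the 10612 windows inside all such genes were higher in Wt25. Of the 36 windows outside the span, 26 were higher in Wt25 and 10 in AA10, a share of 72.2% (56.0 to 84.2), beside 57.2% (56.2 to 58.2) of the 9403 windows tied in the same way to all such genes from outside. Without *Cacna1d*, which had 6 inside windows, the inside share was 50.0% (37.3 to 62.7), an interval that includes 61.1%, and without *Cacna1a* it was 42.1% (30.2 to 55.0). The direction of windows differed by chromosome across the lists, from 10.3% higher in Wt25 inside genes of chromosome 6 to 83.5% on chromosome 19. If each of the 62 inside windows is given the share of its own chromosome, the mean is 64.7%, above the 45.2% counted.

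**Figure D1:**
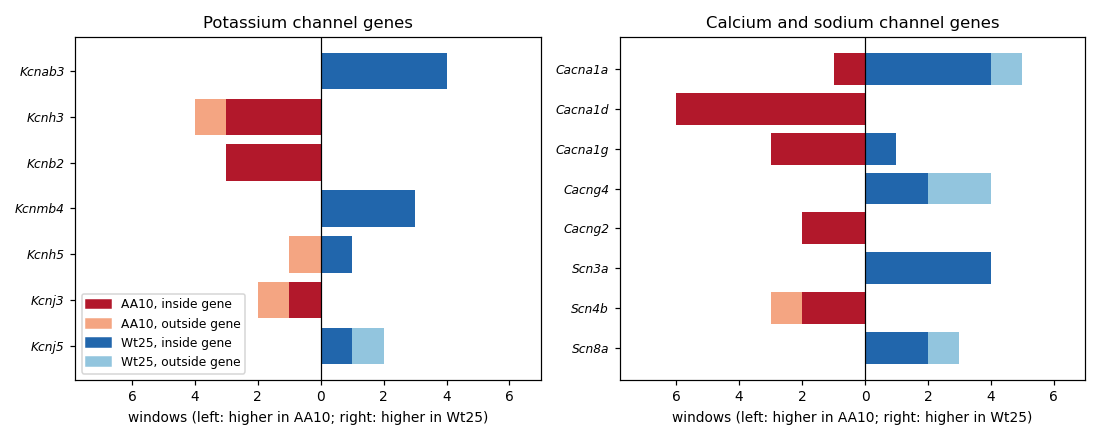
Number of windows at each of the 15 channel genes with at least 2 windows, of which at least 1 lies inside the gene, higher in AA10 to the left and higher in Wt25 to the right, with windows inside the gene span in dark colour and windows tied to the gene from outside in light colour. *Cacna1d* has 6 windows, all to the left, and *Cacna1a* has 5 to the right and 1 to the left.

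By family, 12 of the 25 windows inside potassium channel genes were higher in Wt25 (48.0%, 30.0 to 66.5), 9 of the 25 inside calcium channel genes (36.0%, 20.2 to 55.5) and 7 of the 12 inside sodium channel genes (58.3%, 32.0 to 80.7). No window lay inside an HCN gene. The intervals of the 3 families overlap. That of the calcium channel genes lies below the 61.1% of all genes, and those of the potassium and sodium channel genes include it. The calcium value rests on *Cacna1d*, without which 9 of 19 windows (47.4%, 27.3 to 68.3) were higher in Wt25, an interval that includes 61.1%. Without *Cacna1a* it was 5 of 20 (25.0%, 11.2 to 46.9). The mean chromosome shares for the same windows were 64.7% for potassium, 61.9% for calcium and 70.5% for sodium channel genes.

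Windows were sparse inside channel genes for their length. The 135 genes cover 16.9 Mb and held 3.66 windows per Mb (Poisson interval 2.81 to 4.70), against 10.7 per Mb over all autosomal protein-coding genes. The Wt25 windows numbered 1.65 per Mb against 6.53, and the AA10 windows 2.01 per Mb against 4.17. The family values ranged from 2.41 per Mb in potassium channel genes (1.56 to 3.56) through 5.15 in calcium channel genes (3.33 to 7.60) to 9.65 in sodium channel genes (4.99 to 16.9). The sodium interval includes the 10.7 of all genes, and the potassium and calcium intervals lie below it. Among genes of at least 100 kb, 17 of 44 channel genes (38.6%) held a window against 55.7% of all such genes, with 2.32 against 7.37 windows per Mb. Since long genes held fewer windows per Mb, numbers given below at the density of all genes are high for long genes and low for short ones. Among the 23 potassium channel genes of that length, 5 held a window, with 0.823 windows per Mb. For calcium channel genes it was 8 of 13 with 4.15 per Mb, and for sodium channel genes 4 of 7 with 8.16 per Mb. None of the 98 windows lay in a dense run, defined as 20 or more windows in a row that share a direction and lie no more than 10000 bp apart, whereas 12.0% of the windows inside all genes did.

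**Figure D2:**
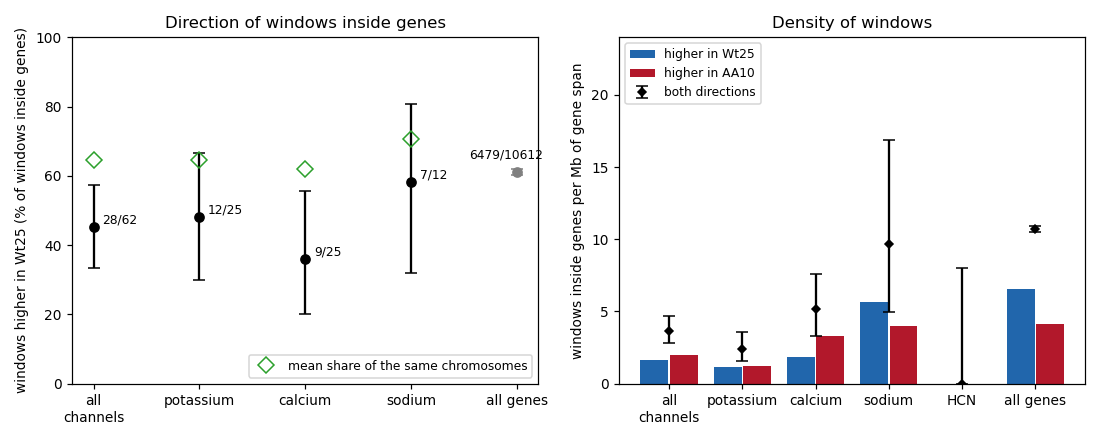
Left, percent of windows inside genes that were higher in Wt25 (points, with 95% Wilson intervals and counts) and, as open diamonds, the mean share of the chromosomes on which the same windows lie. Right, windows inside genes per Mb of gene span, with bars for each direction and diamonds with 95% Poisson intervals for both together; all channels stand at 3.66 and all genes at 10.7.

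The pore-forming alpha1 subunits of calcium channels held most of the calcium channel windows. Of the 9 genes, 7 had a window, and of their 20 windows 7 were higher in Wt25 and 13 in AA10. *Cacna1d*, an L-type channel of neurons, endocrine cells and the cardiac pacemaker, had 6 windows inside its 452 kb, all higher in AA10, at chr14:30114403-30114600, chr14:30125403-30125600, chr14:30277603-30277800, chr14:30278403-30278600, chr14:30369803-30370000 and chr14:30374403-30374600. They fell in introns 18, 11, 3, 3, 1 and 1 of 46 of its transcript, between 117 and 377 kb from the gene start, and held 1 to 6 CpGs. At the density of all genes a span of this length would hold 4.83 windows of either direction. Inside genes of chromosome 14 as a whole, 74.4% of windows were higher in Wt25.

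*Cacna1a*, the P/Q-type channel of presynaptic terminals, went mostly the other way. Of the 5 windows inside its 252 kb, 4 were higher in Wt25 and 1 in AA10, and another Wt25 window lay 17.5 kb upstream. The Wt25 windows at chr8:84484003-84484200 and chr8:84504603-84504800 were in intron 3 of 46, that at chr8:84515403-84515600 in intron 4 and that at chr8:84607003-84607200 in intron 34. The AA10 window, at chr8:84577203-84577400 in intron 24, lay between the last of these and the others.

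The T-type channels, which open at low voltages, were split as well. *Cacna1g* had 3 AA10 windows, 2 of them touching at chr11:94452603-94453000 in intron 9 of 35 and 1 in intron 1, with a Wt25 window in intron 5 between them. *Cacna1h* had 1 AA10 window and *Cacna1i* 1 Wt25 window. *Cacna1c*, the main L-type channel of heart and smooth muscle, had 1 AA10 window in intron 3 of 47 over 609 kb, on chromosome 6, where 10.3% of windows in genes were higher in Wt25. *Cacna1e*, the R-type channel, had 1 AA10 window in 494 kb.

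Among the accessory calcium channel subunits, the 8 gamma genes had 6 Wt25 and 2 AA10 windows. Inside the gene they had 2 in each direction. *Cacng4* and *Cacng2* encode proteins that also regulate AMPA-type glutamate receptors. *Cacng4* had 4 Wt25 windows, 2 in its first intron and 2 upstream at 18.5 and 55.7 kb, and the adjoining *Cacng5* had 1 Wt25 window downstream. *Cacng3* had 1 Wt25 window 179 kb upstream, inside *Prkcb*. *Cacng2*, which encodes stargazin, had 2 touching AA10 windows in intron 1 of 3. The alpha2delta genes, whose products carry the pore to the membrane, had 1 AA10 window in *Cacna2d2* and 1 Wt25 window in *Cacna2d3*, the latter 608 kb from the start of an 817 kb gene. The cytoplasmic beta subunits had 1 window, higher in Wt25 and 84.8 kb upstream of *Cacnb2*.

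Sodium channel genes had windows in both directions. The 10 pore-forming alpha genes had 8 Wt25 windows, 4 of them in *Scn3a*, and 2 AA10 windows, with 3 genes pointing only to Wt25 and 2 only to AA10. The 4 beta genes had no Wt25 window and 4 AA10 windows, at 2 genes. *Scn3a*, an alpha subunit prominent in the developing brain, had 4 windows inside its 111 kb, all higher in Wt25, in introns 1, 1, 10 and 17 of 26 and between 12.3 and 77.1 kb from the gene start. Its neighbours on chromosome 2 had fewer: *Scn9a*, an alpha subunit of sensory neurons, 1 Wt25 window, *Scn1a*, an alpha subunit of inhibitory neurons, 1 AA10 window, and *Scn2a* and *Scn7a* none. Inside genes of chromosome 2 as a whole, 75.9% of windows were higher in Wt25. *Scn8a*, an alpha subunit of the axon initial segment, had 2 Wt25 windows in intron 1 of 26 with 8 and 5 CpGs and a Wt25 window 33.0 kb upstream.

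The beta subunits are single-pass membrane proteins that alter sodium channel gating and cell adhesion. *Scn4b* had 2 AA10 windows in its first intron and 1 more 5.35 kb downstream, and *Scn3b* had 1 AA10 window in intron 2 of 6. Both genes lie on chromosome 9, where 68.0% of windows inside genes were higher in Wt25. All 4 windows tied to them were higher in AA10.

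**Figure D3:**
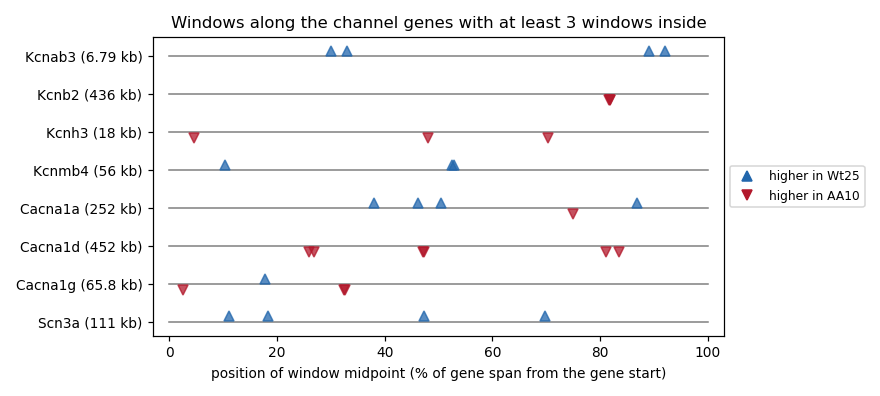
Positions of windows along the 8 channel genes with at least 3 windows inside, as percent of the gene span from the gene start (span in kb beside each name); upward triangles are higher in Wt25 and downward triangles higher in AA10. Triangles that coincide are neighbouring bins; *Cacna1d*, *Kcnb2* and *Kcnh3* hold AA10 windows alone, and *Scn3a*, *Kcnab3* and *Kcnmb4* Wt25 windows alone.

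Potassium channel genes had 28 Wt25 and 21 AA10 windows. The accessory subunits and regulators, from the *Kcnab*, *Kcne*, *Kcnip*, *Kcnmb* and *Kcnrg* genes, had 9 Wt25 windows and 1 AA10 window at 5 of 16 genes. *Kcnab3*, a cytoplasmic beta subunit of Kv channels, had 4 Wt25 windows inside a span of only 6.79 kb, where the density of all genes would give 0.0726. They formed 2 touching pairs, one at chr11:69328203-69328600 in intron 3 of 13 and one at chr11:69332203-69332600 in the untranslated part of the last exon. *Kcnmb4*, a neuronal beta subunit of the large-conductance calcium-activated channel, had 3 Wt25 windows in its 56.0 kb, 2 touching in intron 2 and 1 in intron 1. The accessory AA10 window was in intron 2 of *Kcnip3*, and the remaining Wt25 windows were upstream of *Kcnip2* and *Kcnmb2*. Of the 9 accessory Wt25 windows, 7 thus came from 2 genes.

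The pore-forming Kv genes of the *Kcna*, *Kcnb*, *Kcnc* and *Kcnd* groups had 4 AA10 windows and no Wt25 window inside the gene. *Kcnb2*, a delayed rectifier, had 3 touching AA10 windows at chr1:15644003-15644600 in its single intron, 357 kb from the start of a 436 kb gene, so they count as 1 region. Outside the gene, *Kcna4* and *Kcna7* had 3 Wt25 windows and *Kcnd2* 1 AA10 window 486 kb upstream. The *Kcna4* windows were 489 and 667 kb downstream, and 667 kb was the largest distance of any channel window from its gene.

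*Kcnq* and *Kcnh* pore genes had 3 Wt25 and 7 AA10 windows. *Kcnh3*, a Kv channel of the forebrain, had 4 AA10 windows, at chr15:99222003-99222200, 2.76 kb upstream, and in introns 1, 9 and 10 of 14. A gene of its length would hold 0.192 windows at the density of all genes. *Kcnh6* and *Kcnq1*, a cardiac and epithelial channel, had 1 AA10 window each inside, and *Kcnh5* 1 Wt25 window inside and 1 AA10 window 60.1 kb downstream.

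Inward rectifiers (*Kcnj*), which hold the membrane near rest, had 6 Wt25 and 2 AA10 windows. *Kcnj5*, a G-protein-gated channel of the heart, had a Wt25 window across its first exon (chr9:32344203-32344400) with 12 CpGs. *Kcnj3*, its partner in the same channel, had 2 AA10 windows, in intron 3 and 194 kb downstream. *Kcnj6* had 1 Wt25 window in intron 3, and *Kcnj2* 1 upstream. *Kcnj11*, a subunit of the ATP-sensitive channel, had 2 touching Wt25 windows 14.3 and 14.5 kb downstream that lay inside *Nomo1*.

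The tandem-pore leak channels (*Kcnk*) had 2 Wt25 and 3 AA10 windows. The AA10 window in the coding sequence of *Kcnk4*, a mechanosensitive leak channel, held 16 CpGs, the highest number of any AA10 channel window, and *Kcnk7* had an AA10 window in its last exon with 1 CpG. *Kcnk3*, an acid-sensitive leak channel, had 1 Wt25 window in its intron, and *Kcnk1* had 1 window each way, both outside the gene.

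The electrically silent Kv subunits, which form channels only together with other Kv subunits, had 4 Wt25 and 3 AA10 windows, none of them inside the gene. *Kcns3* had 3 of the Wt25 windows, 11.0, 12.8 and 26.2 kb upstream. The calcium- or sodium-activated potassium channel genes had 1 window among 8 genes, higher in Wt25 and 5.16 kb upstream of *Kcnn4*. HCN channels carry the pacemaker current, and 2 of their 4 genes had windows. *Hcn3* had 1 AA10 window centred 105 bp upstream of the gene with 10 CpGs. In the genome sequence 60.1% of this window is marked as repeat. It ends in short tandem repeats, although the authors filtered bins for such sequence.

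The longest channel genes without a window were *Kcnip4* (1135 kb), *Kcnma1* (725 kb), *Kcnq5* (564 kb), *Kcnh7* (491 kb) and *Cacna2d1* (440 kb). At the density of all genes these spans would hold 12.1, 7.76, 6.03, 5.25 and 4.71 windows. Genes of at least 100 kb held fewer windows per Mb (7.37 against 10.7), so these numbers are high for such long spans. *Kcnma1* encodes the large-conductance calcium-activated channel to which the *Kcnmb4* product binds, and the window nearest to it lay 475 kb away. A bin is absent from the lists when its difference missed the threshold, when its read count was too low or when a filter removed it, and these cannot be told apart here.

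Inside the genes, 56 of the 62 windows (90.3%, 80.5 to 95.5) were intronic, against 85.1% inside all genes. Promoters, taken as 1000 bp before to 100 bp after a start, held 2, coding exons 1 and untranslated exons 3. The coding share was 1.61% (0.285 to 8.59) against 6.00% over all genes. The median distance from the gene start was 35.3 kb, 21.3 kb for Wt25 and 65.7 kb for AA10 windows. By family, the Wt25 and AA10 medians were 6.14 and 43.3 kb (potassium), 95.7 and 110 kb (calcium) and 40.6 and 5.31 kb (sodium). The order was thus reversed in sodium channel genes. The AA10 windows include 6 in the 452 kb *Cacna1d* and 3 touching bins in *Kcnb2*. Of the 62 windows, 38 lay nearer the start than the end of the gene. Of the 62, 18 carry a gene other than the channel, or in 1 case no gene, in the deposited annotation, since this takes the nearest transcription start. The 36 windows outside lay 0.105 to 667 kb away with a median of 25.0 kb, 23 upstream and 13 downstream. Some lay inside another gene, among them windows tied to *Cacng3* (inside *Prkcb*), *Kcng2* (*Ctdp1*), *Kcnip2* (*Armh3*), *Kcns2* (*Stk3*) and *Kcnj11* (*Nomo1*).

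Channel windows held 4.03 ± 3.49 CpGs (SD, n = 98 windows). The windows inside all genes held 3.33 ± 2.54, and the channel windows inside the gene 4.23 ± 3.91 (n = 62). The median was 3 in each set. Inside the genes the Wt25 windows held 5.29 ± 4.79 (n = 28) and the AA10 windows 3.35 ± 2.79 (n = 34), again with a median of 3 in each, so the means differ by less than the SD of either. Among the Wt25 windows rich in CpG, not all of which are named here, were those of *Kcnab3* (13), *Kcnj5* (12) and *Cacng4* (11). That of *Kcnj5* was a promoter window. Every channel window had at least 1 CpG. The letters CCGG, the site of the enzyme *MspI*, were present in 27 of 98 windows (27.6%, 19.7 to 37.1), against 21.9% inside all genes. AGGTCA, searched on both strands, was present in 12 (12.2%) against 12.3%, and CACGTG in 3 (3.06%) against 3.95%.

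**Figure D4:**
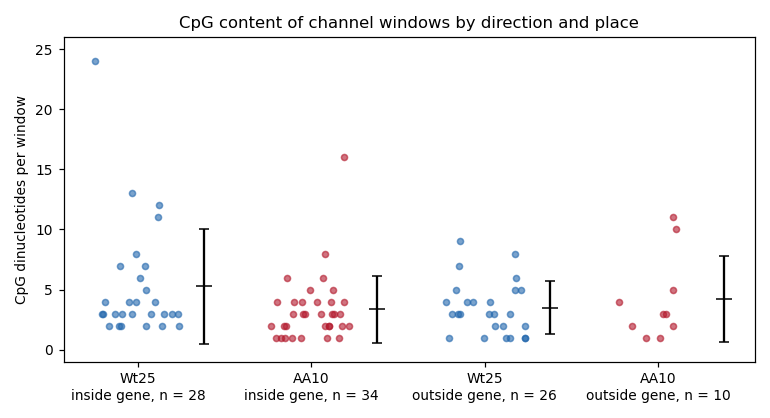
CpG dinucleotides in each of the 98 channel windows (points, spread sideways for clarity) by direction and by place, with the mean and SD over windows beside each group. Most windows hold 1 to 8 CpGs in each group, and the highest AA10 value, inside a gene, is 16.

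Most windows stood alone. Joining windows of one direction that lie within 1 kb left 87 regions, of which 78 were single windows. A single gene set some of the family values. Without *Cacna1d*, the Wt25 share over all calcium channel windows went from 48.4% to 60.0% (15 of 25), and without *Cacna1a* to 40.0% (10 of 25). Without *Scn3a*, the sodium channel share went from 57.1% to 40.0% (4 of 10). Counted once per gene by its majority direction, the potassium, calcium and sodium families each had genes on both sides.

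A list of channel partners, mostly proteins that bind, carry or anchor these channels, was counted beside them. It also holds *Nalcn*, itself an ion channel gene, and *Unc79* and *Unc80*, whose products belong to the same channel. None of these had a window. Of the 17 autosomal genes of the list, 12 had windows, against 34.9% of all genes, but the 17 genes are long and cover 8.12 Mb together. Of their 86 windows, 67 were higher in Wt25 and 19 in AA10, a Wt25 share of 77.9% (68.1 to 85.4) beside 58.8% for all genes. *Ank3* and *Ank2*, the ankyrins that anchor sodium channels and other membrane proteins to the cytoskeleton, had 18 and 15 Wt25 windows and 7 and 6 AA10 windows. *Lgi1*, a secreted protein associated with Kv channel complexes, had 12 Wt25 windows, 4 of them inside the gene, and no AA10 window. It lies on chromosome 19, where 83.5% of windows inside genes were higher in Wt25.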

How the data were processed

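The 5hmC-DIP reads of 3 libraries of each line were aligned by the authors uniquely to GRCm38 with STAR and cleared of duplicates with Picard. The authors compared the lines with MEDIPS in 200 bp bins (*P* under 0.05, fold change of at least 1), removed bins on IgG-DIP peaks and bins with low complexity or tandem repeat sequence, and named the nearest gene with HOMER. The deposited lists pool the libraries and hold positions only, with no count, fold or *P*-value (unit: other). Tool versions are not given in the sources used here, and the reads, RNA-seq and H3K27ac data were not analysed here.

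Windows were placed by midpoint in GENCODE vM21 basic genes of GRCm38.p6, which also gave the sequences, and 7454 of 7457 deposited gene identifiers matched. A feature was taken in the order promoter, coding exon, untranslated exon and intron, over all transcripts of the gene; intron numbers refer to 1 coding transcript. Shares carry Wilson intervals and densities Poisson intervals. No test was made. The channel genes, the partner list, the other channel list and the alternatives were chosen with earlier results of these data known. Named genes were those with at least 3 windows inside, with both directions inside, or with a window in a promoter, coding exon or untranslated exon, the 5 longest without a window and, of the other lists, the 3 with most windows; the rest were named to describe their role group after their values had been seen. Some channel genes are counted but not reported singly here. The *Kcnk4* and *Hcn3* sequences were likewise added afterwards. The code gave the known answer in all 19 checks on simulated windows. Computations were run with statsmodels 0.14.6, pandas 2.3.3, numpy 2.4.6, scipy 1.17.1 and matplotlib 3.10.9 under Python 3.11.15.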

Additional observations from a re-analysis of the deposited data

How the results depend on the processing

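Of the 69 alternative values computed for shares, counts, density, CpG number and intron share, 65 stayed within the counting interval, the SD or 1.5 times of the value reported, and 4 did not. Some of the 65 could not move, since leaving out dense runs removed no channel window. The small families have wide intervals, in which a changed share still counts as the same. The CpG mean was judged by the SD over windows (3.49), which is wide as well. It rose from 4.03 to 7.05 in the 21 windows without repeat-marked bases and still counted as the same. Taking only windows with the midpoint inside the gene lowered the Wt25 share of all channels from 55.1% to 45.2%, the windows from 98 to 62 and the genes with a window from 54 to 34, since the alternative drops the windows tied to a gene by the deposited annotation. Among genes of at least 100 kb, the density was 2.32 windows per Mb in place of 3.66. It stayed below that of all genes in each of the 6 settings computed, at 0.315 to 0.389 times. HCN genes gave no share for inside windows because they had none. The alternatives that left out single genes, or 1 window from the CpG mean, were chosen after seeing the data. The lists hold no values of single libraries, so no replicate could be left out and no stricter threshold set. No paired analysis was possible because the lists hold no replicates and no result comes from a test.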

Other observations

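A further list of 62 genes, taken by the symbols of other ion channels, had 43 Wt25 and 26 AA10 windows. These lay at 26 of the 62 genes, which cover 8.41 Mb, against 34.9% of all autosomal protein-coding genes. The same 34.9% stands beside the gene counts of the small groups below, and gene length was not taken into account. The Wt25 share was 62.3% (50.5 to 72.8) beside 58.8% for all autosomal protein-coding genes. TRP channels, cation channels of sensory and other signals, had 16 Wt25 and 5 AA10 windows at 9 of 22 genes. These 22 include *Trpc4ap*, which matched by symbol, encodes a protein associated with a channel and had no window. The *Clcn* genes, which encode chloride channels and related transporters, had 1 Wt25 and 5 AA10 windows at 3 of 6 genes. The channels that release calcium from internal stores (*Ryr* and *Itpr* genes) had 11 Wt25 and 7 AA10 windows at 5 of 6 genes, with 5 Wt25 windows at *Ryr1*, the skeletal muscle form, and 3 AA10 windows each at *Itpr1* and *Itpr2*, both on chromosome 6. Anoctamins had 7 Wt25 and 5 AA10 windows. *Asic2*, a proton-gated sodium channel gene of 1088 kb, had most windows of the list, 5 higher in Wt25 and 1 in AA10. These counts have no test, and the calcium release channels on chromosome 6 lie where 10.3% of windows inside genes were higher in Wt25. *Ryr1* lies on chromosome 7, where 79.4% were.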
